A study of Mus musculus with 6 samples.

Results

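The mitochondrial genome of the mouse held 37 of the 55450 genes in the deposited table, taken as every gene placed on chromosome MT. They were 13 mRNAs, 2 rRNAs and 22 tRNAs, of which 28 are annotated on the plus strand and 9 on the minus strand (mt-Nd6 and 8 tRNAs). All 37 lie at their positions in the GENCODE M21 annotation of GRCm38. A gene was tested when its FPKM averaged at least 1 across the 6 libraries, which held for 35 of the 37 and for 11796 genes in all. FPKM counts fragments scaled by gene length and by sequencing depth, so it allows levels of different genes to be compared.

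RNA was sequenced from C2C12 cells, an established mouse skeletal muscle line, 72 h after transfection with 20 nM of siRNA. The 3 siCD36 libraries came from cells given siRNA against Cd36, and the 3 siCont libraries from cells given a control siRNA. The labels call the cells myoblasts and the methods call them myotubes, and neither says which of the Cd36 duplexes a library received nor whether replicates were separate cultures, so the spread behind each p-value may be technical. Poly(A) RNA was selected with oligo(dT), and libraries held 56907806 to 71878709 counts. Cd36, the fatty acid receptor targeted by the siRNA, was at 0.137, 0.113 and 0.103 FPKM with siCD36, against 4.12, 4.61 and 4.79 FPKM with siCont (log2 fold change -5.26). Of 10 muscle markers 9 reached a mean of 1 FPKM, Pax7 being the exception, and of 9 markers of other cells 1 did, Pdgfra at 1.59 FPKM. siCont replicate 1 stood apart from the other siCont libraries in most mitochondrial mRNAs, and siCD36 replicates 1 and 3 from the other 4 libraries in mt-Atp6, so values that rest on them are given per library and, for sums and counts of genes, also without them.

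Mitochondrial DNA is transcribed from both strands into long precursors that cover many genes, and excision of the tRNAs that lie between the other genes releases mRNAs and rRNAs. The mRNAs encode subunits of respiratory complexes I, III and IV and of the ATP synthase, and the rRNAs and tRNAs serve the ribosome inside the organelle. In skeletal muscle these complexes supply most of the ATP of oxidative metabolism. All other subunits, and the whole machinery of transcription and RNA processing, come from nuclear genes. Mammalian nuclear chromosomes also carry copied stretches of mitochondrial DNA, and the mouse has one on chromosome 1 that is almost identical to its source.

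Neighbouring genes share bases, which matters for how a read is counted. The longest shared stretch joins the end of mt-Atp8 to the start of mt-Atp6, both subunits of the membrane part of the ATP synthase. It spans 43 bases from 7927 to 7969, shown here in capitals between 30 bases on each side, as read from the GENCODE M21 transcripts on the plus strand (chrMT:7897-7999).
mt-Atp8/mt-Atp6: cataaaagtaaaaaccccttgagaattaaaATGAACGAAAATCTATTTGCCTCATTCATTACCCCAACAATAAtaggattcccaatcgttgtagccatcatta
The other overlaps were of 14 bases (mt-Nd5 with mt-Nd6, on opposite strands), of 7 bases (mt-Nd4l with mt-Nd4) and of 1 to 3 bases in 6 further pairs. Whether counting used the strand is not given in the sources used here, so reads of genes that overlap on opposite strands cannot be told apart.

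A search of the GENCODE M21 transcripts with the mitochondrial genes (at least 90% identity over at least 100 bases) found 17 nuclear copies, of which 10 passed the same filter. The 7 with most counts lie side by side on the minus strand of chromosome 1 between 24611535 and 24616197. The copies Gm28661 of mt-Co2, Gm10925 of mt-Atp6, Gm28437 of mt-Co3, Gm28439 of mt-Nd4 and Gm10222 of mt-Nd4l were identical to their source over every aligned base. Gm28438 differed from mt-Nd3 at 1 of 345 bases and Gm29216 from mt-Co1 at 1 of 483, and the sequences around those bases show how little there is to separate a read of one from a read of the other. In each line the differing base is in capitals, the mitochondrial genes are on the plus strand (chrMT:9459-9491 and chrMT:6390-6423) and the copies on the minus strand (chr1:24613087-24613119 and chr1:24616155-24616188).
mt-Nd3: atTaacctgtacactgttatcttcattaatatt
Gm28438: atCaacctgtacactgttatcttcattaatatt
mt-Co1: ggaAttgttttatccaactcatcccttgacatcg
Gm29216: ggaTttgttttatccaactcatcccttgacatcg
Counted from 1 at the 5′ end of the mitochondrial gene, the substitutions were T3C in Gm28438 and A1066T in Gm29216.

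These copies took up a sizeable part of the data. They held 2.61%, 2.77% and 2.61% of all counts with siCD36, against 2.57%, 2.14% and 2.13% with siCont. The counts of Gm28438 were 97.7% to 102% of those of mt-Nd3 in the 6 libraries, those of Gm10222 95.0% to 99.3% of mt-Nd4l, those of Gm28437 92.9% to 101% of mt-Co3 and those of Gm28661 76.1% to 104% of mt-Co2. A nuclear copy and its mitochondrial gene thus had nearly the same count in most libraries, and how the authors' counting treated reads that match both is not given in the sources used here. Gm29216 held 16.6% to 20.0% of the counts of mt-Co1 and Gm28439 29.7% to 35.2% of those of mt-Nd4, which they match over part of the length. In all of these pairs, mitochondrial and nuclear reads cannot be told apart.

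mt-Atp6 was the exception to the even split. It had 374214, 98647 and 439722 raw counts with siCD36, against 92565, 57108 and 51693 with siCont. Its copy Gm10925, identical over 678 bases, had 375362, 428547 and 436218 raw counts with siCD36, against 370157, 250496 and 228829 with siCont. So mt-Atp6 took 49.9%, 18.7% and 50.2% of the counts of the pair with siCD36, against 20.0%, 18.6% and 18.4% with siCont. The libraries fell into 2 kinds, siCD36 replicates 1 and 3 with equal counts and the other 4 with about 4 times as many counts in the copy, and the siCD36 group held both kinds. The log2 fold change of mt-Atp6, siCD36 over siCont, was 1.92 (standard error 0.55, adjusted p = 0.0985 with edgeR's quasi-likelihood test), whereas that of Gm10925 was 0.29 (adjusted p = 0.414 with edgeR). With the copies' counts added to their mitochondrial genes it was 0.78 (adjusted p = 0.130 with edgeR), while leaving out single libraries gave 1.62 (siCD36 replicate 3 removed) to 2.34 (siCD36 replicate 2 removed). DESeq2 called mt-Atp6 (adjusted p = 0.0090). The largest fold change among the 35 genes thus came with 2 libraries in which the counts of an identical pair were divided otherwise than in the rest, and it did not pass edgeR's test.

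**Figure D1:**
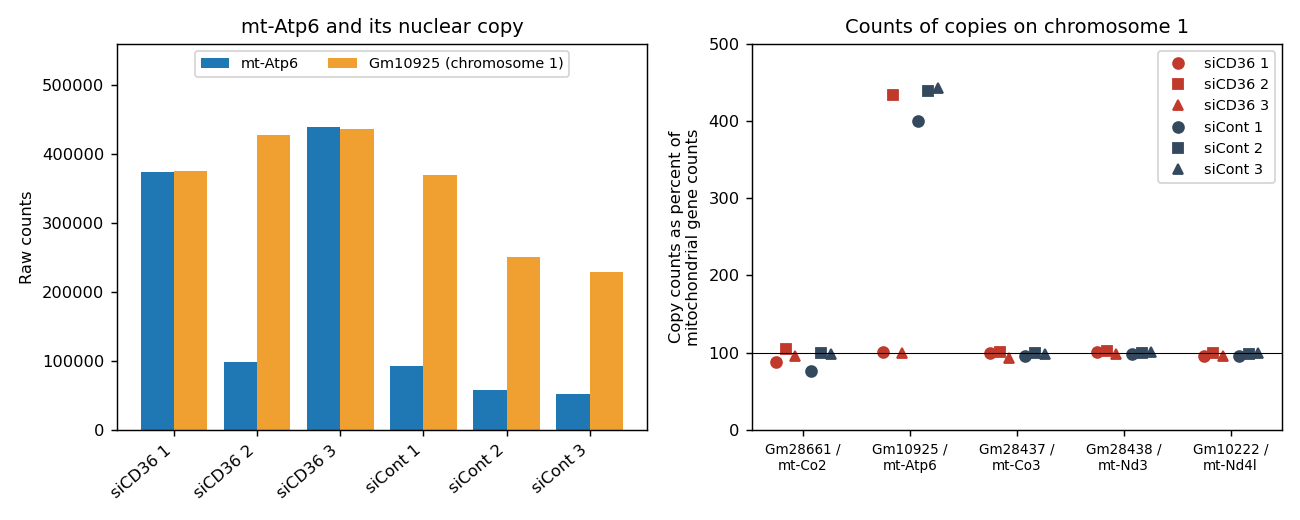
Left, bars give raw counts of mt-Atp6 and of its identical copy Gm10925 in each library, siCD36 first. Right, points give the counts of 5 copies as a percent of the counts of their mitochondrial gene in each library, with a line at 100%. The copies lie between 88.2% and 104%, except Gm10925 in 4 libraries (between 399.9% and 443%) and Gm28661 in siCont replicate 1 (76.1%).

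The share of all counts that came from mitochondrial genes addresses whether the knockdown went with more or less mitochondrial RNA. It was 8.22%, 7.86% and 8.19% with siCD36, against 8.22%, 6.51% and 6.20% with siCont, or 8.09% ± 0.201 with siCD36 and 6.98% ± 1.09 with siCont (SD, n = 3 each). The siCD36 libraries lay close together, whereas siCont replicate 1 reached the siCD36 level and the other siCont libraries lay below it. The difference was 1.11 percentage points, with overlapping groups (exact permutation test, 2-sided, p = 0.4, where 3 libraries against 3 cannot give less than 0.1). It was 1.74 percentage points without siCont replicate 1 and 0.725 without siCont replicate 3. Without mt-Atp6 the shares were 7.70%, 7.73% and 7.62% with siCD36, against 8.08%, 6.42% and 6.11% with siCont (exact permutation p = 0.4). Together with the nuclear copies they were 10.8%, 10.6% and 10.8% with siCD36, against 10.8%, 8.65% and 8.33% with siCont (exact permutation p = 0.2). In bulk RNA, another make-up of the culture and another amount of RNA per cell cannot be told apart.

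**Figure D2:**
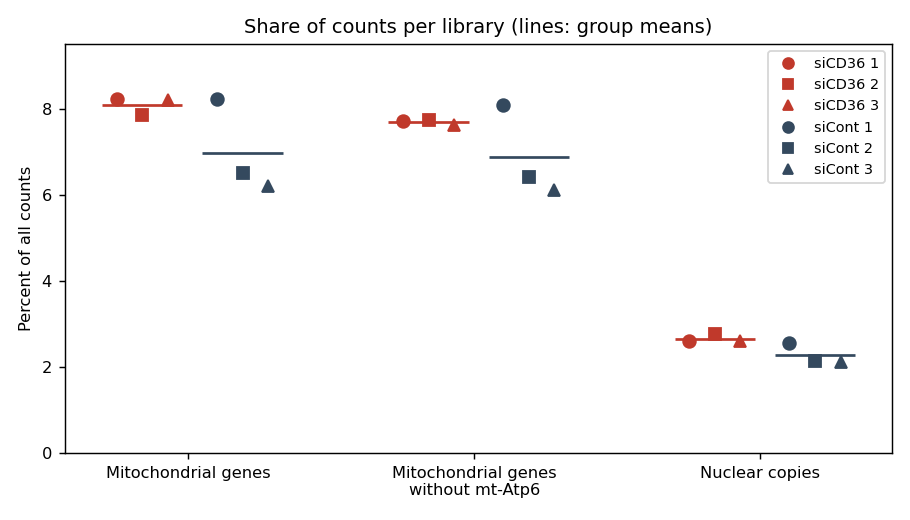
Points give the percent of all counts of a library that fell on mitochondrial genes, on mitochondrial genes without mt-Atp6 and on nuclear copies, with siCD36 left of siCont and lines at the group means. In each of the 3 measures siCont replicate 1 lies at or near the siCD36 libraries and the other siCont libraries lie below them.

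Of the 10 muscle markers 1 lay higher in every siCD36 library (Myf5) and 2 lay lower (Myh3 and Des). Over all genes 16.1% and 16.3% lay higher and lower in this way. The other 7 overlapped. Of these, Mymk, Ckm and Acta1 were lower on average with siCD36, and Pax7, Myod1, Myog and Tnnt3 higher. Myh3, the embryonic myosin heavy chain of new muscle fibres, was at 297, 310.5 and 344 FPKM with siCD36, against 465, 459 and 504 FPKM with siCont. Myf5, a transcription factor of myoblasts, was at 7.11, 7.51 and 7.35 FPKM with siCD36, against 3.37, 3.28 and 4.68 FPKM with siCont. The part of these differences in the mitochondrial values was not tested.

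Across the 35 tested mitochondrial genes, edgeR's quasi-likelihood test (Benjamini-Hochberg over all 11796 genes, threshold 0.05) called 1 gene higher with siCD36, mt-Nd3, and 0 lower. Over all genes 2.2% were called higher and 3.06% lower, so 1 of 35 does not stand out from the table. At an unadjusted p under 0.05 edgeR had 4 mitochondrial genes higher and 1 lower, where 12.5% and 12.9% of all genes were higher and lower. DESeq2 called 3 higher and 0 lower after adjustment, against 6.51% and 7.71% of all genes, and limma called 2 higher and 0 lower, against 2.25% and 2.44%. Of the 35 fold changes 21 were above 0 and 14 below, with a median log2 fold change of 0.10, against 0.0028 over all genes. Every siCD36 library lay above every siCont library in 6 of them, mt-Nd3, mt-Nd6, mt-Te, mt-Tp, mt-Ts1 and mt-Tk, where 16.1% of all genes did so. Every siCD36 library lay below every siCont library in 2, mt-Rnr1 and mt-Tg, where 16.3% of all genes did so. The genes share precursors, and several share reads, so their counts are not independent of each other.

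**Figure D3:**
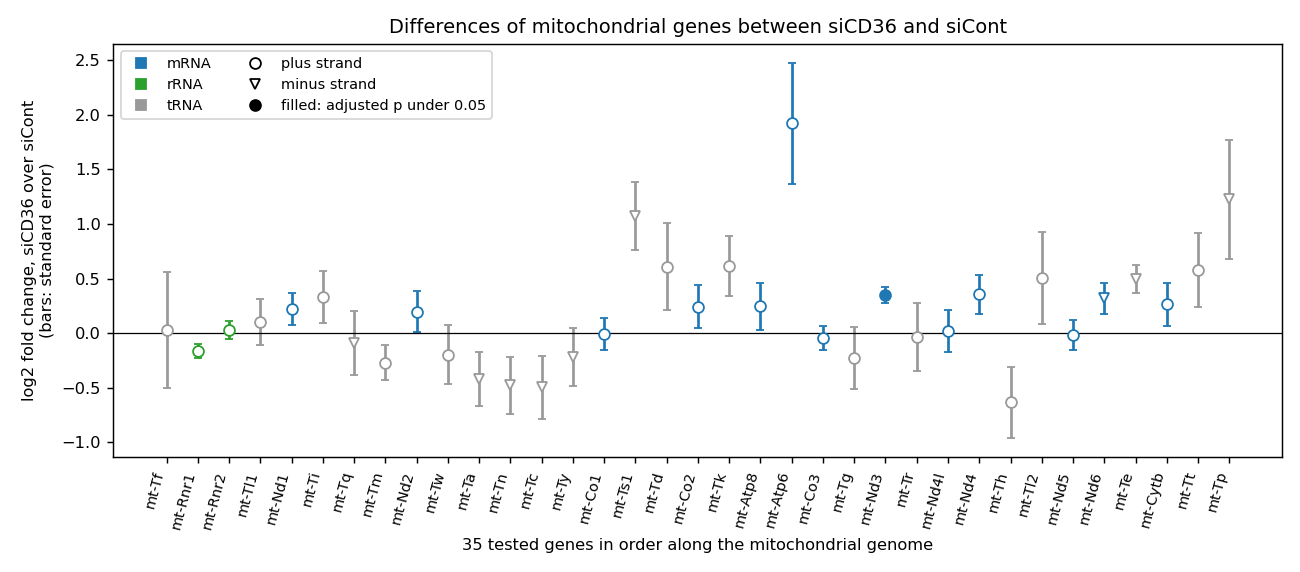
Points give the log2 fold change (siCD36 over siCont) of the 35 tested genes in their order along the mitochondrial genome, with bars for the standard error, colour for the class of RNA and a triangle for the minus strand. The filled point, mt-Nd3, is the gene with an adjusted p under 0.05, and the widest bars belong to mt-Atp6, mt-Tp and mt-Tf.

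Among the 7 mRNAs of complex I, the NADH dehydrogenase, mt-Nd3 was the one that passed the test. Levels from here on are CPM, counts scaled to a common library size after TMM correction of depth. mt-Nd3 had 478, 468 and 420.0 CPM with siCD36, against 366, 339.6 and 366 CPM with siCont. All siCD36 libraries lay above all siCont libraries, siCont replicate 1 included. The log2 fold change was 0.35 (standard error 0.074, adjusted p = 0.0498 with edgeR), a 1.27-fold difference. Its copy Gm28438 had 483, 475 and 411 CPM with siCD36, against 357, 340.0 and 370.4 CPM with siCont (log2 fold change 0.36, adjusted p = 0.0599 with edgeR). The call lay at the threshold and was lost when any 1 library was left out (edgeR adjusted p 0.0611 without siCD36 replicate 1, the lowest, to 0.192 without siCD36 replicate 2) and when the copies were added (0.0592). Of 16 alternatives to the main fit, these included, 4 called mt-Nd3. DESeq2 was among the 4, and limma did not call it.

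The other complex I mRNAs did not pass the test. mt-Nd6, the only mRNA on the minus strand, had 2296, 2186 and 2196 CPM with siCD36, against 2175, 1646 and 1523 CPM with siCont. Its groups did not overlap, by a narrow margin against siCont replicate 1 (log2 fold change 0.32, adjusted p = 0.218 with edgeR). mt-Nd4 had 6378, 6178 and 5913 CPM with siCD36, against 6193, 4146 and 4081 CPM with siCont. mt-Nd1 had 7604, 7276 and 6815 CPM with siCD36, against 7481, 5825 and 5318 CPM with siCont. mt-Nd2 had 4463, 4269 and 3908 CPM with siCD36, against 4799, 3174 and 3072 CPM with siCont. In these 3 genes siCont replicate 1 stood within or above the siCD36 libraries and the other siCont libraries below them, and the log2 fold changes were 0.36, 0.22 and 0.19 (adjusted p = 0.269, 0.404 and 0.560 with edgeR). mt-Nd4l had 641, 731 and 684 CPM with siCD36, against 890.1, 603 and 537 CPM with siCont. mt-Nd5 had 4459, 4863 and 4799 CPM with siCD36, against 5663, 4464 and 4128 CPM with siCont. For both, siCont replicate 1 was the highest of the 6 libraries, and the log2 fold changes were 0.02 and -0.01, the second turning to 0.02 without scaling factors.

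mt-Cytb encodes cytochrome b, the one mitochondrial subunit of complex III. It had 10357, 9933 and 9653 CPM with siCD36, against 10924, 7162 and 6822 CPM with siCont. The groups overlapped through siCont replicate 1 alone (log2 fold change 0.27, standard error 0.20, adjusted p = 0.448 with edgeR).

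The 3 mRNAs of cytochrome c oxidase, complex IV, included mt-Co1, the gene with the highest deposited FPKM of the genome. This ranking leaves out the copies, whose counts were 76.1% to 104% of those of mt-Co2 but 16.6% to 20.0% of those of mt-Co1. mt-Co1, which encodes the catalytic subunit, had 24788, 24460.1 and 24187 CPM with siCD36, against 28559, 23939 and 21394 CPM with siCont. The siCD36 libraries lay inside the siCont range. The difference on the log2 scale was -0.0089 ± 0.15 (standard error), and 0.03 without scaling factors (main adjusted p = 0.978 with edgeR). mt-Co3 had 5509, 5345 and 5560.2 CPM with siCD36, against 6393, 5281 and 5258 CPM with siCont (log2 fold change -0.04). mt-Co2, which carries the site where cytochrome c docks, had 8243, 7348 and 7609 CPM with siCD36, against 8631, 5468 and 5526 CPM with siCont. It overlapped through siCont replicate 1 (log2 fold change 0.24, adjusted p = 0.491 with edgeR). Its copy Gm28661 had 7273, 7649 and 7304 CPM with siCD36, against 6569, 5412 and 5460.2 CPM with siCont. The copy did not overlap between the groups, and its log2 fold change was 0.35 (adjusted p = 0.122 with edgeR).

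mt-Atp8, whose end is shared with mt-Atp6, did not show the division of the siCD36 libraries seen in mt-Atp6. It had 1608, 1813 and 1864 CPM with siCD36, against 2032, 1219 and 1213 CPM with siCont (log2 fold change 0.24, standard error 0.21, adjusted p = 0.523 with edgeR). mt-Atp6 was high in siCD36 replicates 1 and 3. For mt-Atp8, replicate 1 was the lowest of the siCD36 libraries and replicate 3 the highest. Within siCont the order of the libraries was the same for both genes.

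Most mRNAs divided the siCont group in the same way. siCont replicate 1 was the highest of all 6 libraries in 8 of 13 mRNAs, and siCont replicate 3 the lowest in 11 of 13. Without siCont replicate 1, a choice made after the data were seen, every siCD36 library lay above both remaining siCont libraries in 12 of 13 mRNAs, where 21.3% of all genes did so. The log2 fold changes of the mRNAs were then 0.05 to 2.24 with a median of 0.43, and edgeR called 0 of them. With each other library left out in turn, 2 or 3 of the 13 mRNAs lay higher in every siCD36 library, where 18.9% to 25.4% of all genes did so, and the median was 0.12 to 0.25. No label gives a reason to leave out siCont replicate 1, and with 3 libraries in a group the data cannot tell which siCont level is the usual one.

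**Figure D4:**
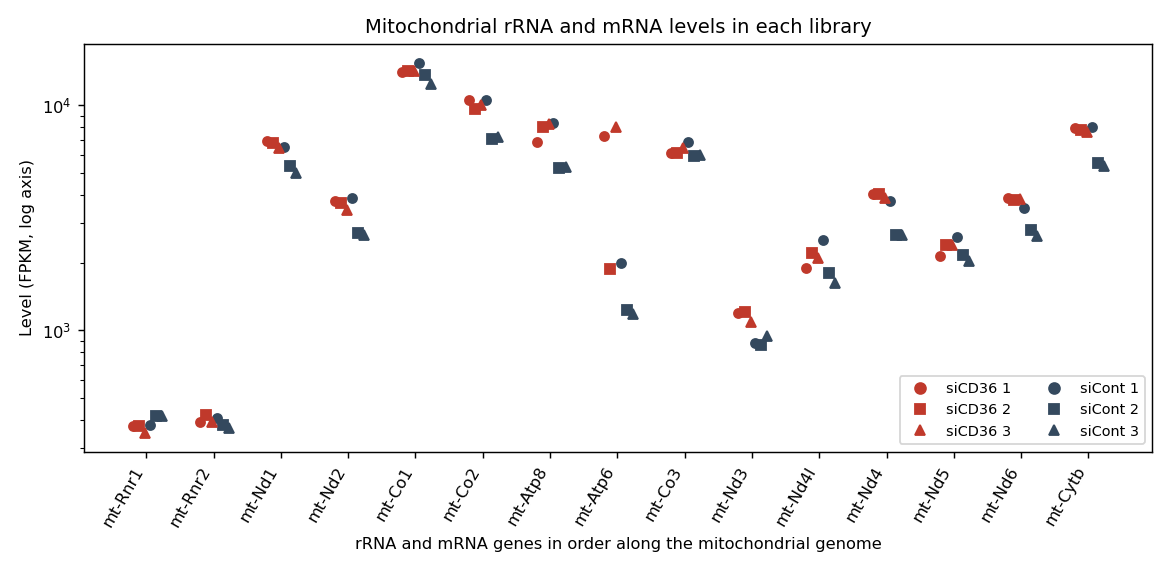
Points give the level (FPKM, log axis) of the 2 rRNA and 13 mRNA genes in each library, in genome order, with siCD36 left of siCont. mRNAs span 862 to 15495 FPKM and rRNAs 349.7 to 421 FPKM. In most mRNAs siCont replicate 1 stands with the siCD36 libraries, and for mt-Atp6 siCD36 replicates 1 and 3 stand apart from the other 4.

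The mixture of the mRNAs was also compared. Each mRNA was expressed as a percent of all mitochondrial mRNA counts without mt-Atp6, a measure added after the data were seen. mt-Nd6 made up 2.99%, 2.92% and 2.98% with siCD36, against 2.59%, 2.60% and 2.57% with siCont. mt-Nd4 made up 8.30%, 8.25% and 8.03% with siCD36, against 7.36%, 6.55% and 6.89% with siCont. mt-Co1 made up 32.3%, 32.7% and 32.9% with siCD36, against 34.0%, 37.8% and 36.1% with siCont. So mt-Nd6 and mt-Nd4 had larger shares in every siCD36 library, and mt-Co1 a smaller one. siCont replicate 1 lay with the other siCont libraries for mt-Nd6, but for mt-Co1 it was nearer to the siCD36 libraries than to them. mt-Cytb made up 13.5%, 13.3% and 13.1% with siCD36, against 13.0%, 11.3% and 11.5% with siCont, and mt-Co3 made up 7.17%, 7.14% and 7.55% with siCD36, against 7.60%, 8.35% and 8.88% with siCont. In both, siCont replicate 1 almost touched the siCD36 libraries. In all, 4 of 12 mRNAs lay above (mt-Nd1, mt-Nd4, mt-Nd6 and mt-Cytb), 3 below (mt-Co1, mt-Co3 and mt-Nd5) and 5 overlapped. For mt-Nd1 the margin was narrow, 9.26% in siCD36 replicate 3 against 9.21% in siCont replicate 2. These shares are defined within the mitochondrial mRNAs, so no share over all genes stands beside these counts. With the copies of chromosome 1 added and mt-Atp6 kept, mt-Nd4 and mt-Nd6 stayed above and mt-Co1, mt-Co3 and mt-Nd5 stayed below, while mt-Nd1 and mt-Cytb overlapped and mt-Co2 and mt-Atp6 joined those above. A larger share of one gene makes the shares of others smaller, and 3 libraries against 3 cannot give an exact permutation p under 0.1, so these shares are a description.

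The 2 rRNAs lie at the start of the plus-strand precursor with mt-Tv between them, and were at lower FPKM than every mRNA. The libraries were selected with oligo(dT), so rRNA counts need not follow the amount of rRNA in the cells. mt-Rnr1, the RNA of the small ribosomal subunit, had 412, 399 and 368 CPM with siCD36, against 434, 449.6 and 441 CPM with siCont. All siCD36 libraries lay below all siCont libraries (log2 fold change -0.17, standard error 0.065, unadjusted p = 0.0400 and adjusted p = 0.176 with edgeR). mt-Rnr2, the RNA of the large subunit, had 709, 742 and 683 CPM with siCD36, against 769, 678 and 645 CPM with siCont (log2 fold change 0.03). Neither passed the test. The counts of mt-Rnr2 over those of mt-Rnr1 were 1.72, 1.86 and 1.85 with siCD36, against 1.77, 1.51 and 1.46 with siCont. rRNAs made up 1.34%, 1.47% and 1.30% of mitochondrial counts with siCD36, against 1.38%, 1.72% and 1.77% with siCont, and tRNAs made up 0.264%, 0.255% and 0.204% with siCD36, against 0.239%, 0.251% and 0.254% with siCont. The remainder were mRNAs. In each of the 4 measures of make-up the groups overlapped. Exact permutation tests (2-sided) gave p = 0.2 for mRNA, rRNA and the rRNA ratio and 1 for tRNA (adjusted p = 0.267 and 1 over the 4). With 3 libraries against 3 these tests cannot give less than 0.1, so they do not decide whether the make-up differed.

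The 22 tRNAs are 59 to 75 bases long and were at 1e-04 to 778 FPKM in single libraries. Mature tRNAs carry no poly(A) tail and are shorter than a sequenced fragment usually is, so their counts in a library selected with oligo(dT) need not follow the amount of mature tRNA. Of the 22, 10 had a mean of at least 100 counts. mt-Tv and mt-Ts2, for valine and a serine tRNA, did not pass the filter: mt-Tv had 5, 3 and 5 raw counts with siCD36, against 0, 1 and 2 with siCont, and mt-Ts2 had 19, 1 and 1 with siCD36, against 1, 2 and 1 with siCont. Of the 20 that were tested 10 fold changes were above 0 and 10 below, from -0.63 (mt-Th, for histidine) to 1.23 (mt-Tp, for proline), with a median of -0.0029. None passed edgeR's test (lowest adjusted p = 0.0807), DESeq2 called mt-Te, and limma called mt-Te and mt-Tk.

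Of the 4 tRNAs that lay higher in every siCD36 library, mt-Te, mt-Tp and mt-Ts1 lie on the minus strand and mt-Tk on the plus strand. The sequences of the minus-strand ones are shown for the place each has beside other genes, and each is read here 5′ to 3′ on the minus strand from the GENCODE M21 transcripts: mt-Tp (chrMT:15356-15422) next to mt-Tt as the last gene of the annotation, mt-Te (chrMT:14071-14139) directly beside mt-Nd6 with no base between them, and mt-Ts1 (chrMT:6870-6938), for the other serine tRNA, which overlaps the end of mt-Co1 by 3 bases on the opposite strand.
mt-Tp: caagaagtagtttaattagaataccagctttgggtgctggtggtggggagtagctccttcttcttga
mt-Te: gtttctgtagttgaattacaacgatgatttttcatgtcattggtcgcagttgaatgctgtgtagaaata
mt-Ts1: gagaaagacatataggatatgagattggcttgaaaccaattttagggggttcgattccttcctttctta

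mt-Te, for glutamate, had the highest mean FPKM of the tRNAs over the 6 libraries, although mt-Tl1 was higher in siCont replicates 1 and 2. mt-Te had 61.5, 54.3 and 49.4 CPM with siCD36, against 45.0, 37.8 and 34.6 CPM with siCont. All siCD36 libraries lay above all siCont libraries (log2 fold change 0.49, standard error 0.13, adjusted p = 0.0807 with edgeR), as for its neighbour mt-Nd6. mt-Tp had 30.1, 29.9 and 24.6 CPM with siCD36, against 5.88, 6.52 and 23.7 CPM with siCont. Here siCont replicate 3 was close to the siCD36 libraries and the other siCont libraries far below. The log2 fold change was 1.23 (standard error 0.54, adjusted p = 0.220 with edgeR). Without siCont replicate 3 it was 2.18, and edgeR called it (adjusted p = 0.0187). mt-Ts1 had 71, 111 and 91 raw counts with siCD36, against 38, 25 and 45 with siCont, without overlap after scaling (log2 fold change 1.07, standard error 0.31, adjusted p = 0.0988 with edgeR). These counts are low, and the opposite-strand neighbour mt-Co1 had 1229652 to 1760798 counts.

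The 4 minus-strand tRNAs between mt-Nd2 and mt-Co1 had fold changes below 0 that did not pass the test. mt-Tn, for asparagine, had 27.6, 22.7 and 15.3 CPM with siCD36, against 39.0, 28.3 and 24.1 CPM with siCont. mt-Ta, for alanine, had 16.7, 15.3 and 9.86 CPM with siCD36, against 23.6, 16.9 and 15.4 CPM with siCont. mt-Tc, for cysteine, had 10.5, 7.16 and 6.22 CPM with siCD36, against 14.8, 10.9 and 7.92 CPM with siCont. In each, siCD36 replicate 1 fell inside the siCont range and the other siCD36 libraries at or under its lower end. The log2 fold changes were -0.48, -0.42 and -0.49, with -0.22 for mt-Ty, for tyrosine (0.03 without siCont replicate 1), and the lowest adjusted p was 0.308 with edgeR. mt-Tq, for glutamine, stood at -0.09. So the 8 minus-strand tRNAs had 3 fold changes above 0 and 5 below and the 12 tested plus-strand tRNAs 7 above and 5 below.

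**Figure D5:**
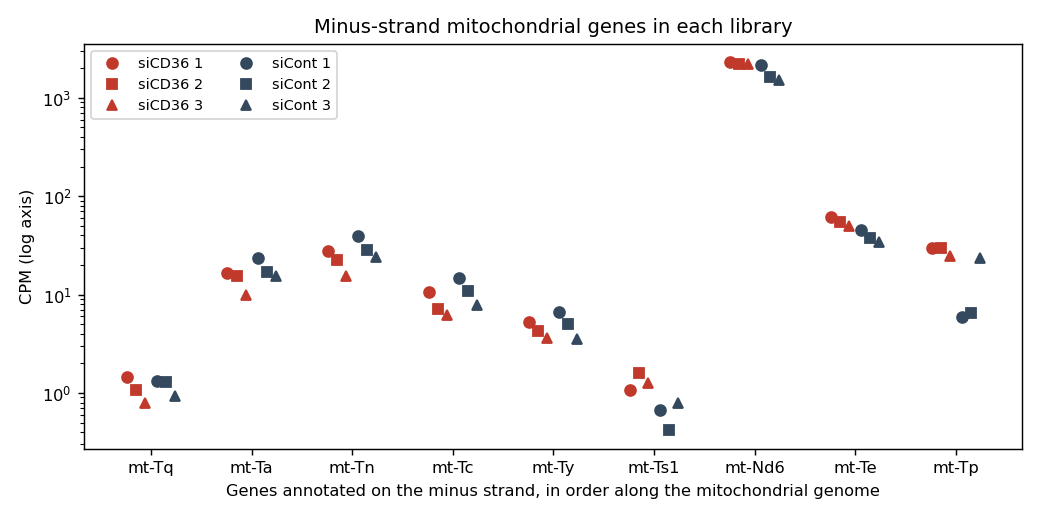
Points give the CPM (log axis) of the 9 genes annotated on the minus strand in each library, in genome order, with siCD36 left of siCont. mt-Ts1, mt-Nd6, mt-Te and mt-Tp lie higher in every siCD36 library, mt-Tp only narrowly above siCont replicate 3, while mt-Ta, mt-Tn and mt-Tc lie lower on average and overlap.

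Among the plus-strand tRNAs, mt-Tl1, a leucine tRNA between mt-Rnr2 and mt-Nd1, had the most counts. It had 52.1, 47.1 and 40.3 CPM with siCD36, against 55.2, 43.7 and 31.1 CPM with siCont, a log2 fold change of 0.10. mt-Tk, for lysine, had 24, 26 and 25 raw counts with siCD36, against 14, 14 and 13 with siCont (log2 fold change 0.62, adjusted p = 0.219 with edgeR). The groups did not overlap, and limma on log2(FPKM + 1) called it (adjusted p = 0.0173). mt-Tg, for glycine, had 16, 19 and 20 raw counts with siCD36, against 20, 18 and 16 with siCont, and lay lower in every siCD36 library after scaling (log2 fold change -0.23). The other 9 tested tRNAs of the plus strand had log2 fold changes of -0.63 to 0.61.

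The nuclear genes that act on mitochondrial DNA and RNA were read from the same test, where 2.2% of all genes were called higher and 3.06% lower. Of 17 genes of transcription and DNA packaging, edgeR called 0 higher and 1 lower, Tfam, which packages the DNA and starts transcription. Tfam had 37.1, 39.9 and 36.3 CPM with siCD36, against 58.9, 55.0 and 49.6 CPM with siCont (log2 fold change -0.53, standard error 0.090 and adjusted p = 0.0308 with edgeR). Every siCD36 library lay below every siCont library, as for 16.3% of all genes, and siCont replicate 1 was the highest. Polrmt, the mitochondrial RNA polymerase, had 26.1, 25.5 and 25.0 CPM with siCD36, against 32.3, 30.3 and 26.8 CPM with siCont (log2 fold change -0.22, adjusted p = 0.207 with edgeR). The median of the list was 0.04, with 9 genes above 0 and 8 below. With edgeR 1 gene of this list was higher and 4 lower at an unadjusted p under 0.05, against 12.5% and 12.9% of all genes. DESeq2 called 1 higher and 2 lower, against 6.51% and 7.71% of all genes. limma called 0 higher and 1 lower, against 2.25% and 2.44%.

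Of 24 genes of RNA processing, stability and decay edgeR called 0 in either direction, with 5 higher and 1 lower at an unadjusted p under 0.05 (12.5% and 12.9% of all genes). DESeq2 called 2 of them higher and 0 lower, against 6.51% and 7.71% of all genes. limma called 1 higher and 0 lower, against 2.25% and 2.44%. Slirp, which binds mitochondrial mRNAs, had 83.1, 93.7 and 81.9 CPM with siCD36, against 48.8, 57.4 and 78.4 CPM with siCont (log2 fold change 0.49, adjusted p = 0.151 with edgeR). Its siCont replicate 3 was close to the siCD36 libraries, as for mt-Tp. Its partner Lrpprc, which stabilises those mRNAs, had 100.2, 107 and 114 CPM with siCD36, against 111, 115 and 111 CPM with siCont (log2 fold change -0.07, adjusted p = 0.573 with edgeR). Of the partners, then, neither passed the test.

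Of 22 tested genes of rRNA and tRNA modification edgeR called 0 higher and 1 lower, Trub2, a pseudouridine synthase. Trub2 had 37.4, 36.8 and 37.1 CPM with siCD36, against 49.9, 48.9 and 45.5 CPM with siCont (log2 fold change -0.37, adjusted p = 0.0366 with edgeR). At an unadjusted p under 0.05, 2 genes of this list were higher and 3 lower, against 12.5% and 12.9% of all genes. DESeq2 called 1 higher and 2 lower, against 6.51% and 7.71% of all genes. limma called 1 higher and 0 lower, against 2.25% and 2.44%, and Trub2 was not called by limma.

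A list of 24 nuclear respiratory genes held mainly subunits that assemble with the mitochondrial ones. Sdha, Sdhb and Cycs in it do not (log2 fold changes -0.12, 0.08 and 0.15). Of the 24, edgeR called 0 higher and 1 lower. In the whole list 19 log2 fold changes were below 0 and 5 above, with a median of -0.13, against 0.0028 over all genes. Atp5b, the catalytic subunit of the ATP synthase, had 1241, 1111 and 982 CPM with siCD36, against 2239, 2027 and 1821 CPM with siCont. All siCD36 libraries lay below all siCont libraries (log2 fold change -0.87, standard error 0.12, adjusted p = 0.0216 with edgeR). At an unadjusted p under 0.05, 0 of the 24 listed genes were higher and 7 lower, against 12.5% and 12.9% of all genes. DESeq2 called 0 higher and 3 lower, against 6.51% and 7.71% of all genes. limma called 0 higher and 1 lower, against 2.25% and 2.44%. The median log2 fold change of the mitochondrial mRNAs was 0.24, with 10 above 0 and 3 below, and the difference between the 2 lists was not tested. The sign of both medians was the same under each of 3 other scalings (-0.14 to -0.11 for the nuclear list and 0.24 to 0.28 for the mitochondrial mRNAs). The calls of Tfam and Trub2 were lost with any 1 library left out other than siCD36 replicate 1 (edgeR adjusted p up to 0.128 and 0.153), and that of Atp5b with any other than siCD36 replicate 1 or siCont replicate 3 (up to 0.103).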

How the data were processed

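Poly(A) RNA of 6 libraries was analysed, 3 siCD36 and 3 siCont, grouped by the sample labels. According to the methods, the authors mapped read pairs with HISAT and estimated expression with StringTie. The deposited file gives counts per gene beside FPKM, which the authors scaled by gene length and depth. The counts are called raw here where no scaling was applied to them. For the 13 mRNAs and 2 rRNAs the deposited counts equalled FPKM times gene length times 1 constant per library, within 0.0042%. At the lowest tRNA values they did not. In siCont replicate 2, mt-Tv had 1 count at 0.034 FPKM. Its count over FPKM and length was 0.424, against 0.0679 for mt-Rnr1. So the smallest counts need not be numbers of reads. No source used here states the counting tool, annotation, strand setting or genome build. Columns of fold changes, p-values and q-values hold the authors' own comparison and were not used.

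Genes averaging at least 1 FPKM were tested with edgeR 4.0.16 in R 4.3.3 (TMM scaling, glmQLFit and glmQLFTest, condition alone), with Benjamini-Hochberg adjustment across all 11796. The standard error is the absolute log2 fold change over the square root of F. CPM are counts scaled by the TMM-corrected library size. Depth was 56907806 to 71878709 counts per library, so counting error limits mainly tRNAs of few counts. Correlations of log2 CPM between libraries were 0.962 to 0.981. Single values per library were compared by exact permutation tests. Nuclear copies were found with blastn 2.17.0+. The fit was tested on simulated data.

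All 37 members were accounted for. Every mRNA and rRNA is named with its values, and of the tRNAs the 6 with the highest mean count (mt-Tl1, mt-Te, mt-Tn, mt-Tp, mt-Ta and mt-Tc). mt-Ts1, mt-Tk, mt-Tg, mt-Th, mt-Tq and mt-Ty, and the nuclear genes Myh3, Myf5, Nsun3, Sdha, Sdhb and Cycs, were named after their values were seen. Other nuclear genes are named if called, with Tfam, Polrmt, Slirp and Lrpprc in any case. The members and the gene lists were chosen with earlier results of these data known. Alternatives were other scalings (RLE, nuclear genes only, none), other filters, DESeq2 1.42.0, limma 3.58.1 on log2(FPKM + 1) and log2(FPKM + 0.1), a block for the replicate number, and leaving out each library. Adding the copies to their gene, shares without mt-Atp6, the shares of single mRNAs and the count without siCont replicate 1 were chosen after the data were seen.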

Additional observations from a re-analysis of the deposited data

How the results depend on the processing

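Against 621 genes of the whole table, 1 mitochondrial gene higher and 3 genes of the nuclear lists called with edgeR, DESeq2 called 1677, 3 and 11. Without a filter on low values these were 327, 0 and 1. With a replicate block edgeR called 199, 0 and 1, and same-numbered libraries did not pair (correlations of their deviations from the group means -0.03 to 0.14). RLE scaling gave 0 mitochondrial genes and no scaling factors gave 2. limma gave 2 with either pseudocount, and 5 genes of the lists with the pseudocount of 0.1. Adding the copies, chosen after the data were seen, gave 0 mitochondrial genes. With 1 library left out the counts were 20 to 1081, 0 to 1 and 0 to 9. No mitochondrial gene was called lower under any of these settings.

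Some fold changes turned sign, and none of these had passed the test. mt-Tf was at 0.03 on the log2 scale, and at -0.043 and -0.082 with limma (pseudocounts 1 and 0.1) and -0.034 with the replicate block. mt-Co1 was at 0.025 without scaling factors, 0.011 with a filter of 5 FPKM, 0.033 with limma at either pseudocount and 0.0013 with the block. mt-Nd5 was at 0.022 without scaling factors, 0.0076 with the filter of 5 FPKM and 0.030 with limma at either pseudocount. With 1 library left out, log2 fold changes ranged from -0.55 to 0.35 for mt-Tf, -0.025 to 0.10 for mt-Rnr2, -0.089 to 0.31 for mt-Tl1, -0.33 to 0.10 for mt-Tq, -0.39 to 0.037 for mt-Tw, -0.42 to 0.029 for mt-Ty, -0.10 to 0.11 for mt-Co1, -0.093 to 0.054 for mt-Co3, -0.18 to 0.12 for mt-Tr, -0.12 to 0.27 for mt-Nd4l, -0.11 to 0.13 for mt-Nd5, -0.092 to 0.030 for Gm28437 and -0.053 to 0.12 for Gm29216. The difference in the tRNA share of mitochondrial counts ranged from -0.0185 to 0.0117 percentage points. For the other mitochondrial genes no setting turned the sign.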

Other observations

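The copies of mitochondrial genes on chromosome 2 are less like their source than those on chromosome 1 and behaved differently. Gm13341, 95.9% identical to mt-Co2, had 1797, 10485 and 6604 raw counts with siCD36, against 1706, 3742 and 5182 with siCont, a wider spread within each group than mt-Co2 itself showed. Gm13340, 97.6% identical to mt-Co1, had 3482, 4614 and 3402 raw counts with siCD36, against 2203, 3023 and 3477 with siCont. Gm13339, 96.7% identical to mt-Nd2 over 510 bases, had 681, 847 and 588 raw counts with siCD36, against 238, 117 and 402 with siCont. Its groups did not overlap, and edgeR's adjusted p was 0.150 for a log2 fold change of 1.22. Together these copies held at most 2.05% of the counts of their source gene in any library.

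Nsun3, an RNA methyltransferase that in human cells acts on the mitochondrial tRNA for methionine, had 16.4, 15.98 and 16.8 CPM with siCD36, against 4.17, 4.72 and 14.9 CPM with siCont. The order of the siCont libraries was that of mt-Tp and Slirp, with replicate 3 near the siCD36 level. The log2 fold change of Nsun3 was 1.04 (standard error 0.49, adjusted p = 0.239 with edgeR). mt-Tm, the tRNA for methionine, had 4.64, 4.33 and 4.27 CPM with siCD36, against 6.35, 4.98 and 4.63 CPM with siCont. Its log2 fold change was -0.27 (adjusted p = 0.355 with edgeR). Whether the values of Nsun3, Slirp, mt-Tp and mt-Tm are linked was not tested.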
